A study of Mus musculus with 31 samples.

Results

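The genes of the cell division cycle were followed here in RNA sequencing of sorted microglia and of cortex from 13-month-old mice. The list held 42 genes, found by gene symbol among the 55401 genes of the count tables. It covers 19 genes of mitotic entry, the spindle and chromosome segregation, 17 genes of DNA replication and its induction, and 6 D-type cyclins, G1 kinases and inhibitors.

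The study asked how the P522R change in phospholipase C gamma 2, encoded by Plcg2, acts on microglia in a mouse model of β-amyloid pathology. A+ mice are the APPswe/PS1dE9 line on C57Bl/6J, in which the mouse prion protein promoter drives both proteins of 1 transgene, a part-human APP695 carrying the Swedish change and human PS1 without exon 9. Pki/ki mice are homozygous for the P522R change, made by CRISPR/Cas9 on the same background, and read counts per gene cannot show such a point change. The 31 libraries came from separately numbered mice, except that number 236 was given both to a CD11b+ A-/Pwt/wt library and to a cortex A+/Pwt/wt library. CD11b+ cells, taken from whole brain with magnetic beads, gave 7 female A-/Pwt/wt libraries (neither transgene nor knock-in), 4 female A+/Pwt/wt libraries and 4 female A+/Pki/ki libraries. Males without the transgene gave 3 A-/Pwt/wt libraries, called WT, and 4 A-/Pki/ki libraries, called KI. The temporo-occipital cortex of females gave 4 A+/Pki/ki libraries, 4 A+/Pwt/wt libraries and 1 A-/Pwt/wt library, which was described and not tested.

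Adult microglia rarely divide, and they renew slowly from their own pool. Near β-amyloid plaques they multiply, driven in part by the receptor of colony-stimulating factor 1. A cell that enters the cycle first uses D-type cyclins with Cdk4 to release E2F factors, then loads and fires the Mcm2-7 helicase to copy its DNA, and last turns on the kinases, cyclins and motors that build and pull apart the mitotic spindle. The mitotic genes are nearly silent in resting cells, whereas many replication and G1 genes are also used in cells that do not divide.

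Libraries held 18918255 to 25118180 counts in female CD11b+ cells, 16229831 to 19946001 in male CD11b+ cells and 25226544 to 43129427 in cortex. CPM is the count of a gene scaled to the library total with TMM factors. The mean log2 CPM of microglia markers was 9.49-10.66 in CD11b+ libraries and 4.73-5.89 in cortex, and no microglia marker was at 0 throughout any group. RNA of other cells was also present. Oligodendrocyte markers summed to 6990-74500 CPM in female CD11b+ libraries, against 13000-26800 CPM for microglia markers there and 4010-6700 CPM for oligodendrocyte markers in cortex. One female A-/Pwt/wt library, mouse 245, stood apart. It had 18259 genes detected against at least 23021 in every other female CD11b+ library, and 4 of the 42 genes (Ccnb1, Rrm2, Ccne1 and E2f8) were at 0 in it alone. For the 42 genes, the counts called by edgeR in the main fits and the medians by role are therefore given with and without it. So are the 4 genes at 0 in it. Values of other lists use all libraries unless stated. The female A-/Pwt/wt columns carry the tag b3 and both A+ groups carry b2, so the tag and the transgene cannot be told apart. In these bulk samples fewer cells of a type and less RNA per cell cannot be told apart either.

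Levels per kilobase of exon differed widely within the list. The highest mitotic gene was Cdc20, at rank 16, in CD11b+ cells and Aurka, at rank 17, in cortex. Below these ranks mitotic and replication genes intermixed. In CD11b+ cells Pcna, the sliding clamp of DNA polymerase, was highest at 26.2 CPM per kilobase. Ccnd1 (cyclin D1) followed at 23.0, then its kinase Cdk4 at 16.6, the cyclin-dependent kinase inhibitor Cdkn1a (p21) at 13.7 and the helicase subunit Mcm3 at 11.2. Mki67 was at 1.07 CPM per kilobase, the kinetochore protein Cenpf at 0.376 and the kinetochore motor Cenpe at 0.308. The replication genes E2f8 and Ccne1 were lower still, and Cdc6, which loads the helicase onto origins, was the lowest at 0.133 CPM per kilobase. In cortex the leading genes were again Pcna (15.9), Ccnd1 (11.2) and Cdk4 (10.9), and the checkpoint kinase Bub1 was lowest at 0.0354 CPM per kilobase, too low to be tested there.

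Mitotic gene RNA was higher in CD11b+ cells of A+/Pki/ki females than in those of A-/Pwt/wt females. All 19 mitotic genes had a fold change above 1 and 9 of them passed the test, with a median log2 fold change of 1.35 (range 0.31 to 2.00). In replication 16 of 17 genes were above 0 on the log2 scale and 1 passed, with a median of 0.47, and in G1 none of 6 passed, with a median of 0.29. In total 10 of 42 genes were called higher and none lower by edgeR's quasi-likelihood test at a Benjamini-Hochberg adjusted p under 0.05. Among all 17446 genes tested, 1.64% were called in either direction and 1.35% were called higher, and the median log2 fold change was -0.01. Every A+/Pki/ki library lay above every A-/Pwt/wt library for 14 of the 42 genes, against 2.5% of all genes tested. These 14 were the 10 called genes with Cdkn2c, Plk1, E2f8 and Ccnb1. Without mouse 245 the medians were 1.24 for mitotic, 0.51 for replication and 0.33 for G1 genes. There 17 genes separated the groups, against 501 of all 17244 genes tested lying wholly higher.

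Mki67, which encodes the proliferation antigen Ki-67, had the smallest adjusted p. It was at 16.5, 17.6, 18.6 and 29.5 CPM in the 4 A+/Pki/ki libraries, at 11, 11.4, 11.9 and 15.9 CPM in the 4 A+/Pwt/wt libraries, and between 5.56 and 9.68 CPM in the 7 A-/Pwt/wt libraries, with a median of 8.2. The 3 groups did not overlap on this scale, set over all female CD11b+ libraries, and the highest value, 29.5 CPM, came from mouse 405. When the 8 A+ libraries were scaled alone, the 2 A+ groups overlapped for Mki67 and for Tpx2. The means were 20.5 ± 6.05 (SD, n = 4) and 7.65 ± 1.46 CPM (SD, n = 7) in A+/Pki/ki and A-/Pwt/wt, a 2.69-fold difference with a log2 fold change of 1.43 (SE 0.20, adjusted p = 0.00443, edgeR). Top2a, the topoisomerase that untangles sister chromosomes, was at 15.9, 17.7, 20.7 and 28.4 CPM in A+/Pki/ki and at 10.3, 11.8, 14.5 and 16.9 CPM in A+/Pwt/wt. In A-/Pwt/wt, Top2a lay between 2.89 and 10.4 CPM with a median of 7.33, the lowest value being that of mouse 245. The A+/Pki/ki libraries lay above all A-/Pwt/wt libraries and overlapped the A+/Pwt/wt libraries, and the log2 fold change of Top2a against A-/Pwt/wt was 1.49 (SE 0.29, adjusted p = 0.0296, edgeR).

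The kinase that starts mitosis and its cyclin rose together. Cdk1 was at 6.01, 6.45, 7.79 and 7.91 CPM in A+/Pki/ki, at 4.47, 5.34, 5.70 and 6.39 CPM in A+/Pwt/wt, and at 1.59-3.78 CPM in A-/Pwt/wt with a median of 2.96. Both A+ groups thus lay wholly above A-/Pwt/wt for Cdk1, and they overlapped each other. The log2 fold change of A+/Pki/ki against A-/Pwt/wt was 1.35 (SE 0.23, adjusted p = 0.0160, edgeR). Ccnb2, a B-type cyclin partner of Cdk1, was at 4.08, 4.46, 4.87 and 4.99 CPM in A+/Pki/ki, at 2.51, 2.55, 4.18 and 4.25 CPM in A+/Pwt/wt and at 0.912-2.43 CPM in A-/Pwt/wt with a median of 1.71. Ccnb2 showed the same order as Cdk1, with a log2 fold change of 1.51 (SE 0.28, adjusted p = 0.0230, edgeR). Ccnb1, the other B-type cyclin, was at 1.75, 3.42, 3.72 and 4.12 CPM in A+/Pki/ki and at 0-1.46 CPM in A-/Pwt/wt. It did not overlap, yet with a log2 fold change of 2.00 (SE 0.67) it missed the threshold (adjusted p = 0.181, edgeR), as it did without mouse 245 (1.77, SE 0.41, adjusted p = 0.0711, edgeR). Ccnb1, Ccnb2, Pcna and Tyms have annotated pseudogenes, so their counts carry that uncertainty.

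**Figure D1:**
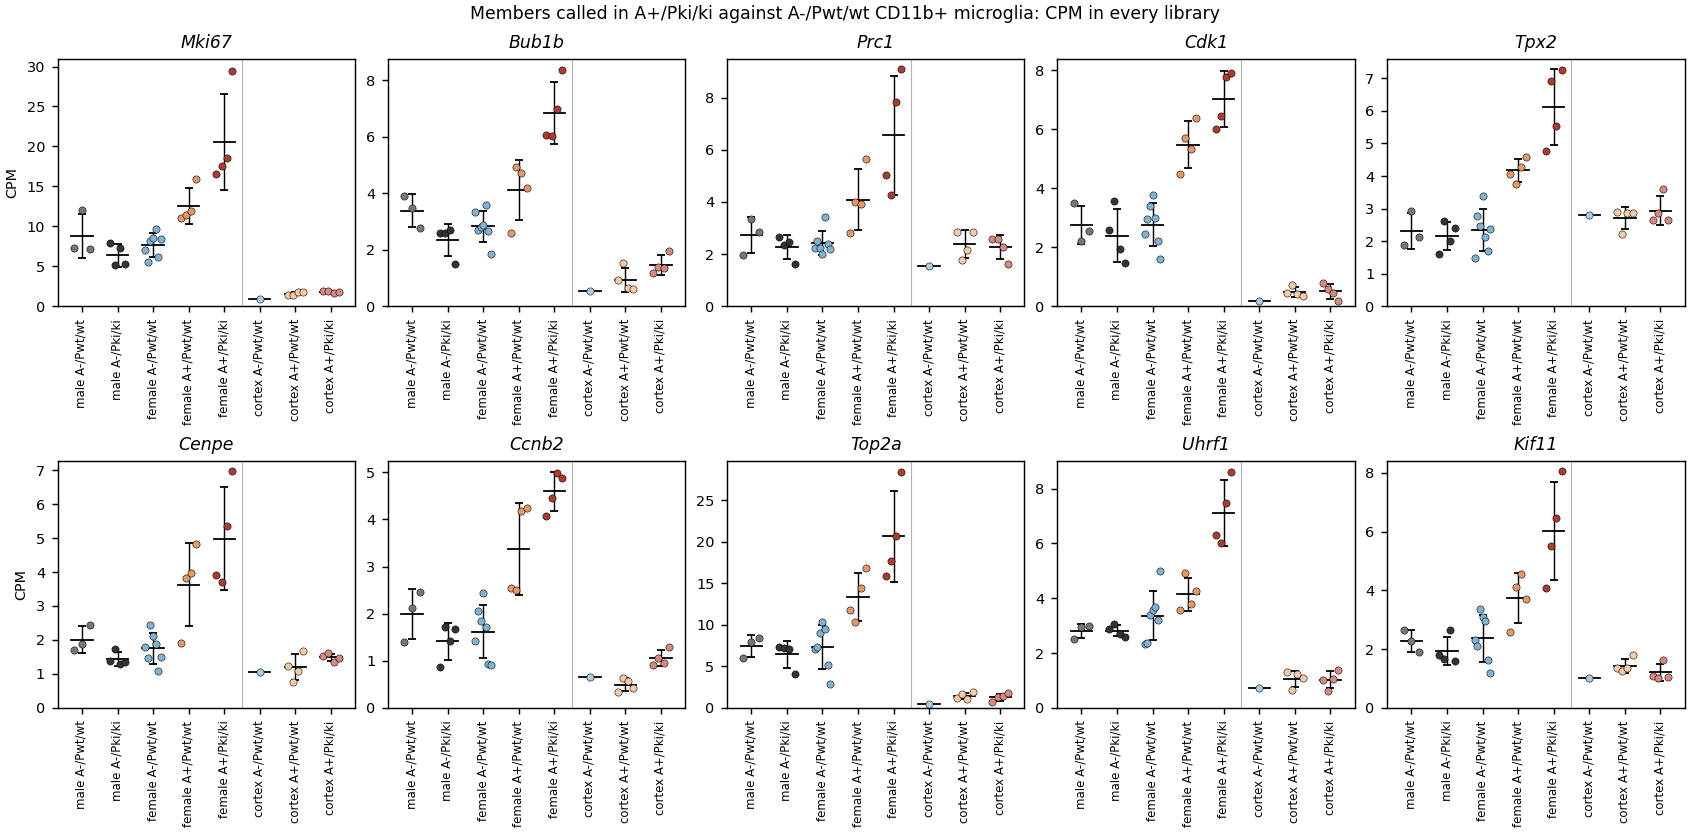
CPM of the 10 genes called higher in female CD11b+ A+/Pki/ki cells than in A-/Pwt/wt cells, 1 panel a gene. Each point is a library, the line is the group mean and the bar its SD, for 8 groups of CD11b+ cells and cortex. For Mki67 the 4 A+/Pki/ki libraries (16.5-29.5 CPM) sit above the 4 A+/Pwt/wt libraries (11-15.9 CPM), which sit above the 7 A-/Pwt/wt libraries (5.56-9.68 CPM), while cortex libraries stay under 2 CPM.

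Genes that build and check the spindle moved in the same direction. Bub1b, the checkpoint kinase BubR1 that holds cells until chromosomes are attached, was at 6.02, 6.05, 6.97 and 8.36 CPM in A+/Pki/ki, at 2.59, 4.20, 4.73 and 4.93 CPM in A+/Pwt/wt and at 1.86-3.60 CPM in A-/Pwt/wt with a median of 2.80. A+/Pki/ki lay above both other groups for Bub1b, and A+/Pwt/wt overlapped A-/Pwt/wt. Its log2 fold change against A-/Pwt/wt was 1.28 (SE 0.20, adjusted p = 0.0107, edgeR). Tpx2, which activates Aurora A on the spindle, was at 4.78, 5.55, 6.93 and 7.27 CPM in A+/Pki/ki, at 3.74, 4.07, 4.29 and 4.58 CPM in A+/Pwt/wt and at 1.48-3.40 CPM in A-/Pwt/wt with a median of 2.38. The 3 groups did not overlap for Tpx2 on this scale, with a narrow gap between the A+ groups.

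Prc1, which bundles the microtubules of the central spindle, was at 4.27, 5.04, 7.84 and 9.10 CPM in A+/Pki/ki, at 2.82, 3.91, 4.00 and 5.63 CPM in A+/Pwt/wt and at 2.00-3.43 CPM in A-/Pwt/wt with a median of 2.25. Mice 394 and 405 were well above the other 2 A+/Pki/ki mice for this gene. Cenpe was at 3.70, 3.90, 5.35 and 6.97 CPM in A+/Pki/ki, at 1.92, 3.83, 3.96 and 4.82 CPM in A+/Pwt/wt and at 1.07-2.45 CPM in A-/Pwt/wt with a median of 1.80. Kif11, the motor Eg5 that pushes spindle poles apart, was at 4.08, 5.50, 6.47 and 8.06 CPM in A+/Pki/ki, at 2.59, 3.72, 4.12 and 4.57 CPM in A+/Pwt/wt and at 1.19-3.35 CPM in A-/Pwt/wt with a median of 2.32. For Prc1, Cenpe and Kif11 the 2 A+ groups overlapped, and A+/Pwt/wt overlapped A-/Pwt/wt. Against A-/Pwt/wt the log2 fold change of A+/Pki/ki was 1.39 for Tpx2 (SE 0.24, adjusted p = 0.0164), 1.43 for Prc1 (SE 0.24, adjusted p = 0.0147), 1.51 for Cenpe (SE 0.27, adjusted p = 0.0172) and 1.35 for Kif11 (SE 0.30, adjusted p = 0.0446), all by edgeR.

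The other 10 mitotic genes did not pass the test. Besides Ccnb1, their log2 fold changes in A+/Pki/ki against A-/Pwt/wt were 1.46 for Aurkb, the kinase that corrects attachments, 0.94 for Bub1, 0.89 for Ccna2 (cyclin A2), 0.86 for Cdc20, the activator of the anaphase-promoting complex, and 0.85 for Plk1 (polo-like kinase). They were 0.81 for the cytokinesis motor Kif20a, 0.71 for Birc5 (survivin, a partner of Aurora B), 0.66 for Cenpf and 0.31 for Aurka (Aurora A). Of these 10 only Ccnb1 and Plk1 separated the groups, and all 10 lay above 0. Counting did not use strand, and 14 of the 42 genes overlap exons of a gene on the other strand, among them Prc1, Ccna2, Cdc20, Kif20a and Plk1, so reads of both partners cannot be told apart.

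**Figure D2:**
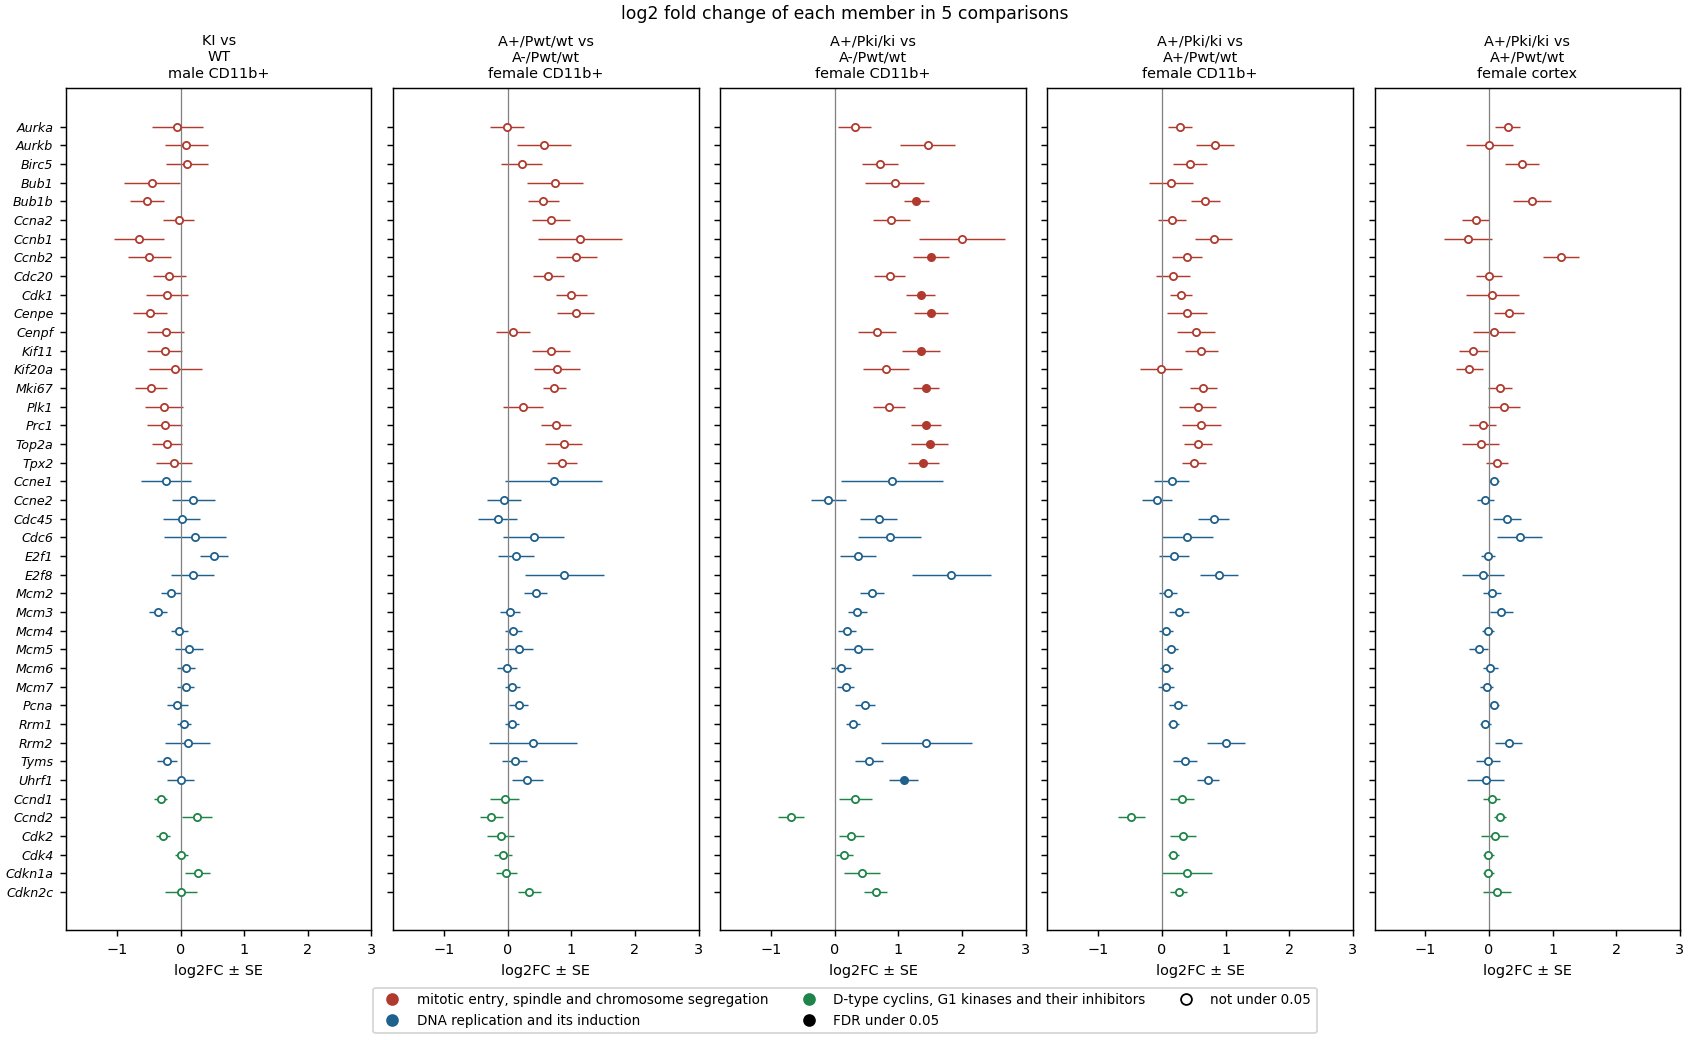
Log2 fold change (x axis) of each gene of the list (y axis) in the 5 comparisons of 2 groups, 1 panel each, with bars of ± SE. Filled points have an edgeR adjusted p under 0.05, open points do not, and colours mark the role. Filled points occur only in the panel of female CD11b+ A+/Pki/ki against A-/Pwt/wt, where 9 of the 10 are mitotic genes.

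Promoter sequence is shown for genes with small p values because mitotic genes are known to share short promoter elements, the CCAAT box bound by NF-Y and the cell cycle homology region bound by the MuvB complex, whereas E2F factors bind their own site. In each stretch capitals mark these elements on either strand (CCAAT reads ATTGG on the other). RefSeq promoters of GRCm38.p6, from 250 bases before to 50 after the start site, were matched for 34 of the 42 genes; Ccna2, Aurkb, Kif20a, Tpx2, Mcm4, Ccne2, Ccnd1 and Ccnd2 had no entry. The stretches lie upstream of the start, outside annotated exons. A promoter was shown only where a searched element lay wholly in such bases, so the shown ones hold an element by choice. Prc1 and Cenpe, also with small p values, held no element there and are not shown.
Mki67, chr7:135716457-135716582, minus strand: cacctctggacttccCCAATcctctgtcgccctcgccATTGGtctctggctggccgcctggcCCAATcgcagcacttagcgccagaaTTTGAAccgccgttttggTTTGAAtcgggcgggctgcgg
Bub1b, chr2:118598008-118598117, plus strand: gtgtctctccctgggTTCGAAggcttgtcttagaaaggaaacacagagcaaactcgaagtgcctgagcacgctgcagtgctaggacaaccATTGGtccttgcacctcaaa
Cdk1, chr10:69352941-69353135, minus strand: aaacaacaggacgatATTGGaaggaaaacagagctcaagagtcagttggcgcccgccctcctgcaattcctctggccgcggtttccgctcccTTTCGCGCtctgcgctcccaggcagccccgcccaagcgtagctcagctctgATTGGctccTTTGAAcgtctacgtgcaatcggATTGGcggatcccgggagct

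All 3 promoters shown held a CCAAT box and a cell cycle homology region, and Cdk1 also held an E2F site. Of those not shown, Prc1 held both elements, while Cenpe held a CCAAT box and no cell cycle homology region. Searched on both strands, CCAAT occurred in 14 of 15 mitotic promoters (93.3%), 11 of 15 replication promoters (73.3%) and 1 of 4 G1 promoters (25.0%), against 37.9% of the promoters of 27025 genes. The cell cycle homology region, searched as TTTGAA or TTCGAA, occurred in 12 of 15 mitotic promoters (80.0%), 4 of 15 replication promoters (26.7%) and 0 of 4 G1 promoters, against 19.4% of all promoters. The E2F site, searched as TTTCCCGC, TTTCGCGC, TTTGCCGC or TTTGGCGC, was in 1 of 15 mitotic promoters (6.67%), 5 of 15 replication promoters (33.3%) and 1 of 4 G1 promoters (25.0%), against 2.32% of all. No motif's letters are contained in another's. These matches describe sequence only, and no binding was measured.

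**Figure D3:**
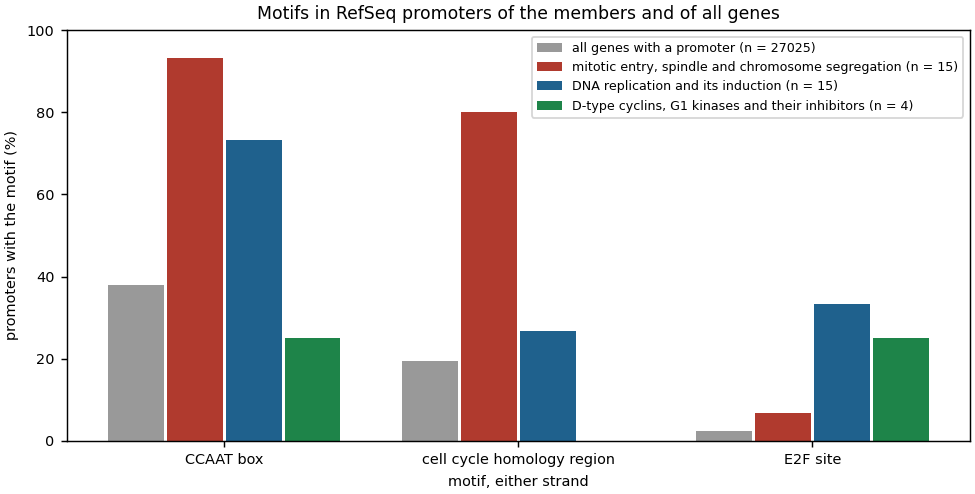
Percent of promoters (y axis) that hold a CCAAT box, a cell cycle homology region or an E2F site, for all 27025 genes with a promoter and for the 15 mitotic, 15 replication and 4 G1 genes matched. The cell cycle homology region was in 80.0% of the mitotic promoters and in 26.7% of the replication promoters.

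Among the replication genes Uhrf1, which brings DNA methylation to newly copied DNA, was the only one called. It was at 6.02, 6.31, 7.48 and 8.62 CPM in A+/Pki/ki, at 3.58, 3.8, 4.25 and 4.93 CPM in A+/Pwt/wt and at 2.32-5.00 CPM in A-/Pwt/wt with a median of 3.40. A+/Pki/ki lay above both other groups, which overlapped. The log2 fold change of Uhrf1 against A-/Pwt/wt was 1.08 (SE 0.23, adjusted p = 0.0374, edgeR). E2f8, a repressive E2F factor induced in S phase, was at 2.09, 2.19, 3.51 and 3.86 CPM in A+/Pki/ki, at 1.16-1.82 CPM in A+/Pwt/wt and at 0-1.33 CPM in A-/Pwt/wt. Its log2 fold change of 1.83 (SE 0.62) had an adjusted p of 0.180 with all libraries and became 1.60 (SE 0.28, adjusted p = 0.0275, edgeR) without mouse 245, where E2f8 was at 0.

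None of the clamp, helicase and nucleotide genes was called. Pcna was at 70.2, 76.0, 76.9 and 102 CPM in A+/Pki/ki, at 58.7-74.6 CPM in A+/Pwt/wt and at 47.3-75.8 CPM in A-/Pwt/wt, with overlap among all 3 groups and a log2 fold change of 0.47 (SE 0.16, adjusted p = 0.197, edgeR) against A-/Pwt/wt. The helicase subunits ran from 0.58 for Mcm2 through 0.37 for Mcm5, 0.35 for Mcm3, 0.19 for Mcm4 and 0.17 for Mcm7 to 0.10 for Mcm6 on the same log2 scale, and none was called. Cdc45, which joins the active helicase, was at 0.69 and Cdc6 at 0.86. For deoxynucleotide supply, the ribonucleotide reductase subunits were at 1.44 (Rrm2) and 0.29 (Rrm1) and thymidylate synthase, Tyms, at 0.53. The cyclins E1 and E2, which drive entry into S phase, were at 0.90 (Ccne1) and -0.10 (Ccne2), and the activator E2f1 at 0.36. Rrm2 and Ccne1 were at 0 in mouse 245, and without it their log2 fold changes were 1.21 and 0.68, again not called.

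No G1 gene was called, and their medians lay nearer to 0. Ccnd1 was at 74.6, 120, 141 and 143 CPM in A+/Pki/ki, at 77.9-104 CPM in A+/Pwt/wt and at 57.5-134 CPM in A-/Pwt/wt, so the groups overlapped widely. Ccnd2 (cyclin D2) was at 14.6, 14.8, 22.6 and 23.2 CPM in A+/Pki/ki, at 21-29.2 CPM in A+/Pwt/wt and at 21.5-39.1 CPM in A-/Pwt/wt. It had the lowest fold change of the list, -0.69 on the log2 scale (SE 0.21, adjusted p = 0.145, edgeR). Cdk4 was at 54.7, 59.5, 60.5 and 63.9 CPM in A+/Pki/ki and at 36.1-60.7 CPM in A-/Pwt/wt, a log2 fold change of 0.15. Cdkn2c, the Cdk4/6 inhibitor p18, was at 0.64 with no overlap between groups (adjusted p = 0.101, edgeR), Cdkn1a at 0.43 and the S-phase kinase Cdk2 at 0.26.

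**Figure D4:**
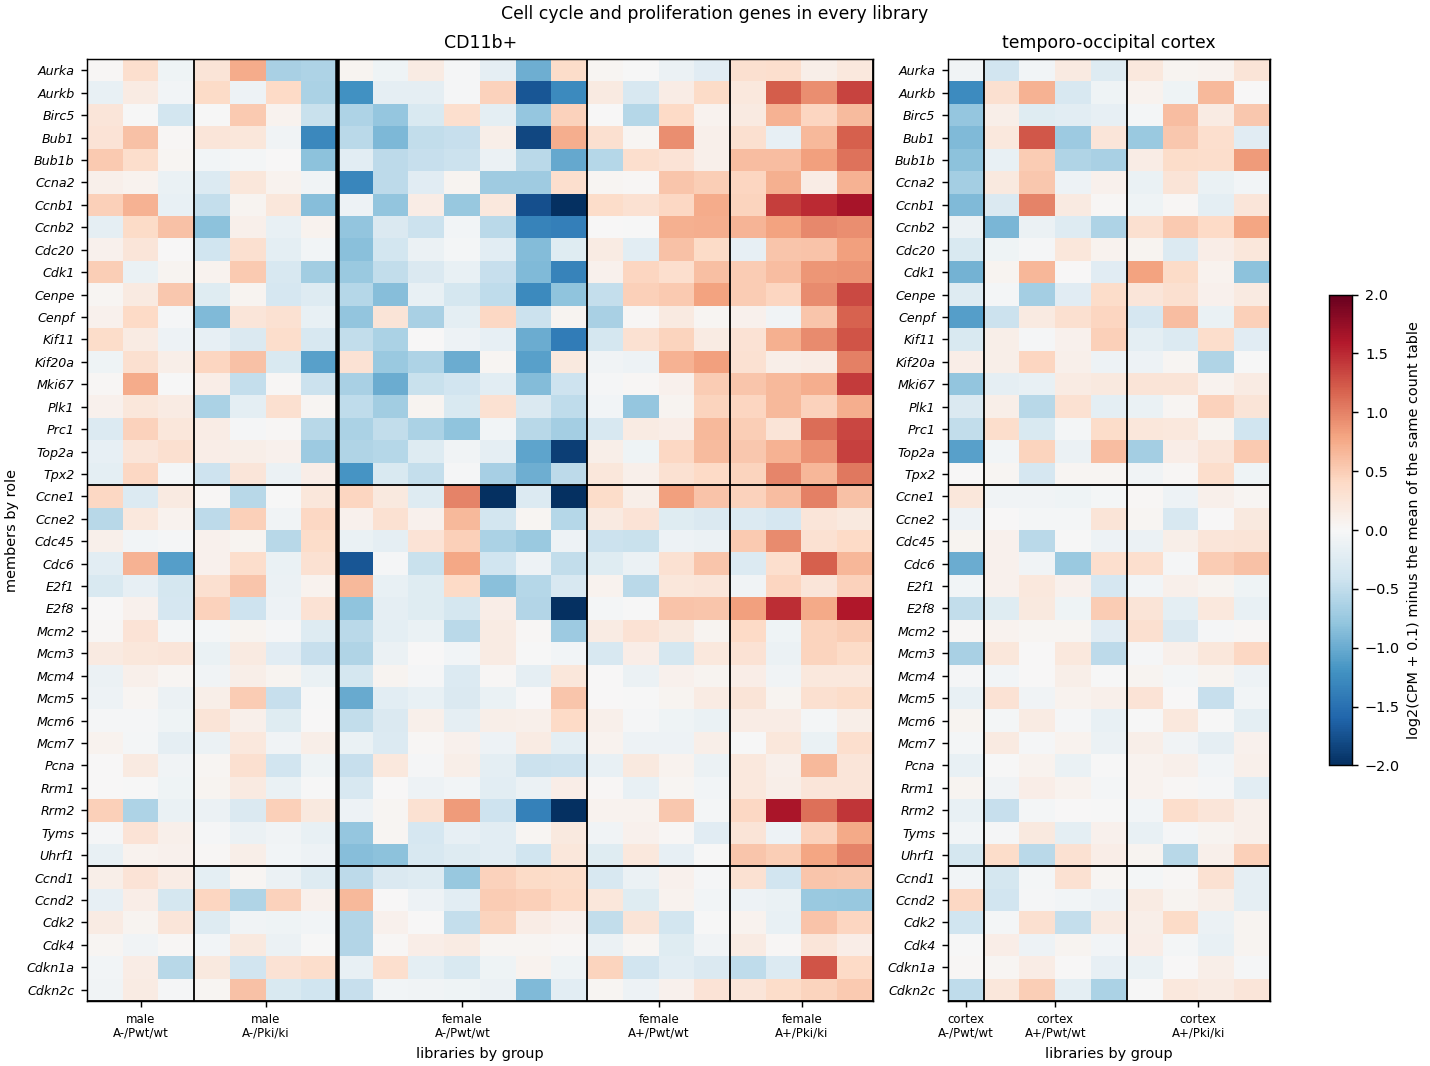
Log2 CPM of the 42 genes (rows, by role) in each library (columns, by group), shown as the difference from the gene's mean over the same count table, with colours from -2 to 2. Among the female CD11b+ columns, most mitotic rows are high in the 4 A+/Pki/ki columns and low in the 7 A-/Pwt/wt columns.

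The number of genes called rested on single mice. Mouse 405 had the highest A+/Pki/ki value for 25 of the 42 genes and for 15 of the 19 mitotic genes. Without it only Mki67 was called (log2 fold change 1.20, adjusted p = 0.0175, edgeR), while 57 genes were called among all tested. Without mouse 394 only Mki67 (adjusted p = 0.0149) and Bub1b (adjusted p = 0.0494) were called by edgeR, without mouse 244 there were 6, and without mouse 335 there were 10. Among all genes tested, 69 were called higher without mouse 394 and 121 without mouse 244. DESeq2 called 15 genes and limma on the deposited values 10. For DESeq2, limma and the fit without mouse 335 the share of all genes called is not given, so these counts have no background. Without mouse 245 of A-/Pwt/wt, 11 were called by edgeR, the 10 above with E2f8, and 185 of all 17244 genes tested were called higher. Over all fits that left out 1 library, by edgeR, the median log2 fold change of the mitotic genes was 1.18-1.42.

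A+/Pwt/wt CD11b+ cells lay between the other groups for the mitotic genes, and none of the 42 genes was called against A-/Pwt/wt by edgeR. There 18 of 19 mitotic genes were above 0, with a median log2 fold change of 0.73, against a median of 0.13 for replication and -0.06 for G1. At an unadjusted p under 0.05 by edgeR, 12 genes were higher and none lower, 11 of them mitotic, against 10.1% of all genes tested in either direction. In the scaling of these 11 libraries 6 genes separated the groups (Cdk1, Mki67, Tpx2, Ccnb2, Top2a and Ccnb1), whereas for Top2a the groups touched, at 10.3 and 10.4 CPM, in the scaling over all female CD11b+ libraries. Among all 17355 genes tested 1.29% were called, and 2.03% lay wholly higher in A+/Pwt/wt. Cdk1 came nearest, with means of 5.47 ± 0.801 (SD, n = 4) and 2.77 ± 0.743 CPM (SD, n = 7), a log2 fold change of 1.00 (SE 0.24) and an edgeR adjusted p of 0.0704. Mki67 had a log2 fold change of 0.73 (SE 0.18, adjusted p = 0.0802, edgeR). The Wald test of DESeq2 called 6 genes in this comparison, with adjusted p values of 0.00262 for Cdk1 and 0.00674 for Mki67, and the others being Tpx2, Cenpe, Ccnb2 and Prc1. Limma on the deposited normalized values called only Cdk1 (adjusted p = 0.0477). The share of all genes called by DESeq2 or limma here is not given. Without mouse 245 edgeR again called none, the adjusted p of Cdk1 was 0.0521, and the median was 0.74 for mitotic, 0.15 for replication and -0.04 for G1 genes.

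The direct comparison of A+/Pki/ki with A+/Pwt/wt asks what P522R changes in microglia when plaques are present. None of the 42 genes was called by edgeR, by DESeq2 or by limma, and the smallest edgeR adjusted p was 0.853. Of all 17039 genes tested 0% were called by edgeR. Even so 39 of the 42 genes were above 0, with a median log2 fold change of 0.32 (mitotic 0.50, replication 0.19, G1 0.29), where the median of all genes tested was 0. In the same fit all 12 microglia markers were above 0 (median 0.22). All 12 neuron (median -0.83), all 10 astrocyte (-0.68) and all 12 endothelial and mural markers (-0.48) were below 0. Relative to microglia markers, the difference in the mean log2 CPM of the 42 genes was 0.15. The part of other cells in these shifts was not tested. By edgeR 11 genes had an unadjusted p under 0.05, all higher in A+/Pki/ki, against 3.37% of all genes tested in either direction. In 7 genes the groups did not overlap, against 1.27% of all genes tested.

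The 7 genes were Uhrf1, Cdc45, E2f8, Rrm1, Bub1b, Aurka and Cdk4. Uhrf1 differed most clearly, with means of 7.11 ± 1.19 and 4.14 ± 0.598 CPM (SD, n = 4 each) and a log2 fold change of 0.72 (SE 0.17). Cdc45 was at 2.14, 2.29, 2.5 and 3.42 CPM in A+/Pki/ki against 1.23, 1.25, 1.57 and 1.60 CPM in A+/Pwt/wt, a log2 fold change of 0.81. Rrm1 was at 26.6-29.2 against 22.3-25.3 CPM, with a narrow gap between the groups. Aurka was at 2.29-2.66 against 1.77-2.15 CPM. Cdk4, at 54.7-63.9 against 45.6-55.6 CPM, separated only when these 8 libraries were scaled without the A-/Pwt/wt libraries.

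Mki67 had a log2 fold change of 0.65 (SE 0.21) and Rrm2 of 1.00 (SE 0.30), neither called. Ccnd2 was the lowest at -0.48 (SE 0.21). A+/Pki/ki libraries enter both comparisons above and A-/Pwt/wt libraries enter both comparisons with A- mice, so the fold changes are not independent of each other.

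**Figure D5:**
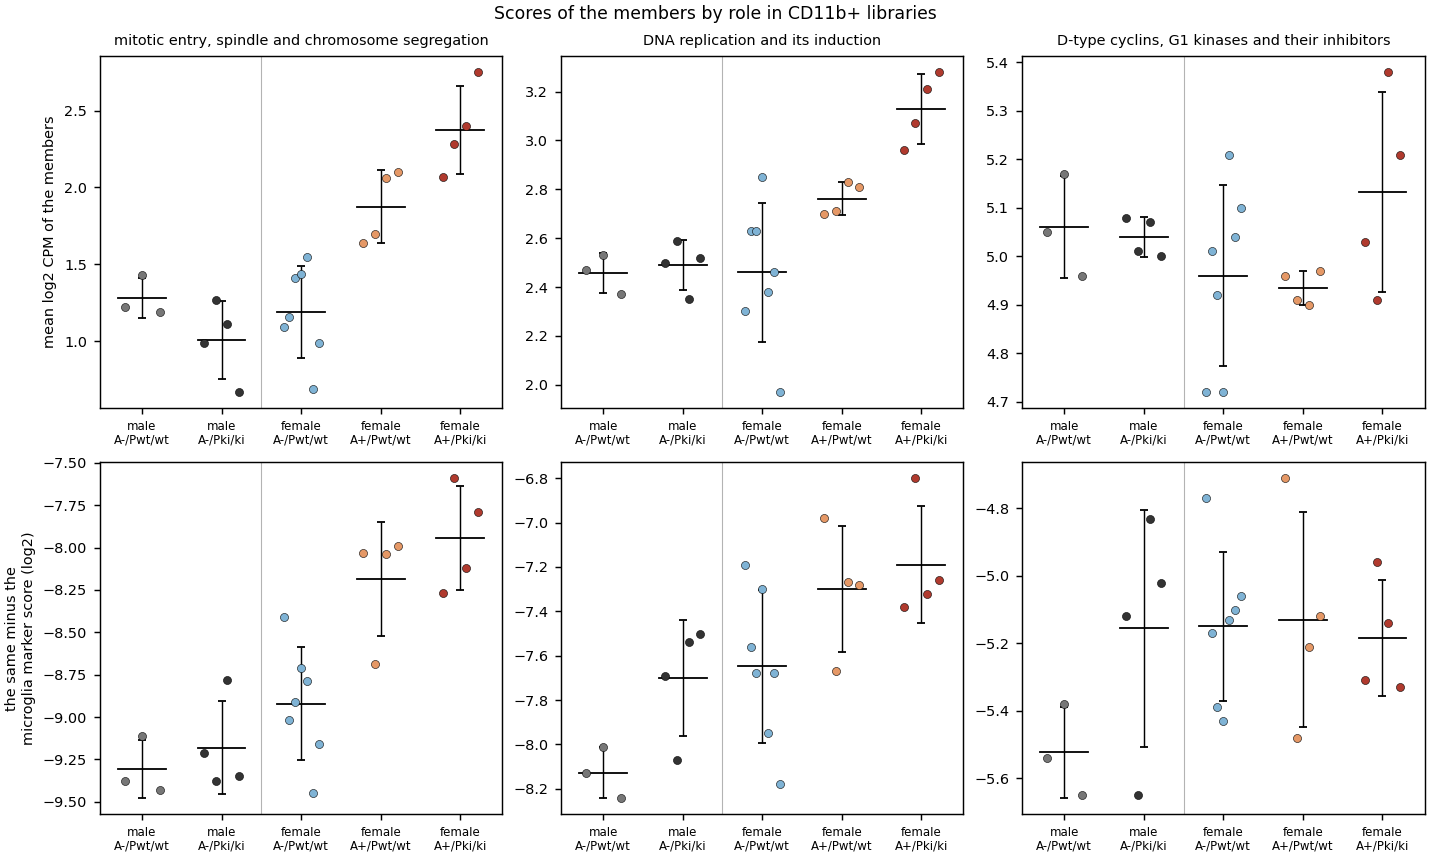
Mean log2 CPM over the genes of each role (top row) and the same minus the mean log2 CPM of microglia markers (bottom row), for mitotic, replication and G1 genes. Points are libraries and lines with bars are the mean ± SD of each group. Mitotic scores of CD11b+ female libraries run from 0.69-1.55 in A-/Pwt/wt through 1.64-2.10 in A+/Pwt/wt to 2.07-2.75 in A+/Pki/ki, and G1 scores overlap.

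Averaged over the 19 mitotic genes, the log2 CPM was 1.19 ± 0.299 (SD, n = 7) in A-/Pwt/wt, 1.88 ± 0.241 (SD, n = 4) in A+/Pwt/wt and 2.37 ± 0.285 (SD, n = 4) in A+/Pki/ki. Only the 2 A+ groups overlapped. The summed level of these genes was 38.1-64.7, 68.7-98.4 and 96.6-161 CPM in the same order. The score of the 17 replication genes was 1.97-2.85, 2.7-2.83 and 2.96-3.28, where A-/Pwt/wt spanned A+/Pwt/wt. The score of the 6 G1 genes, 4.72-5.21, 4.90-4.97 and 4.91-5.38, overlapped throughout.

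Other cell types varied between the same libraries. Microglia markers had a mean log2 CPM of 9.49-10.34 in A-/Pwt/wt, 9.67-10.39 in A+/Pwt/wt and 9.87-10.54 in A+/Pki/ki. Relative to them the mitotic score was -9.45 to -8.41, -8.69 to -7.99 and -8.27 to -7.59, so neighbouring groups then overlapped while A+/Pki/ki remained above A-/Pwt/wt. Against A-/Pwt/wt, 7 of 8 border macrophage markers were below 0 in A+/Pwt/wt (median log2 fold change -0.94, 2 called lower by edgeR) and in A+/Pki/ki (median -0.77, 1 called lower). In A+/Pki/ki against A-/Pwt/wt, none being called by edgeR, all 12 neuron markers (median -0.85) and all 10 oligodendrocyte markers (median -0.53) were below 0. So were all 10 oligodendrocyte precursor markers (median -0.72) and 9 of 10 astrocyte markers (median -0.61). All 12 endothelial and mural markers were also below 0 (median -0.65, none called). Of these, 8 had an unadjusted p under 0.05 by edgeR, against 1066 of all 17446 genes tested being lower at that p. Of 12 microglia markers 11 were above 0 (median 0.21, none called). All 12 markers of neutrophils and their precursors were above 0 in A+/Pki/ki against A-/Pwt/wt (median 1.41, none called or at an unadjusted p under 0.05 by edgeR) and against A+/Pwt/wt, with a median log2 fold change of 2.54 and none called (9 at an unadjusted p under 0.05, edgeR). Their summed level was 43.8-1950 CPM in A+/Pki/ki, 49.5-149 CPM in A+/Pwt/wt and 92.3-718 CPM in A-/Pwt/wt, and no marker was at 0 in every CD11b+ library. Markers of neural progenitors and new neurons, cells that also divide, summed to 5.53-59.1 CPM in A-/Pwt/wt, 10.9-20 CPM in A+/Pwt/wt and 2.85-24.5 CPM in A+/Pki/ki, so the groups overlapped. Of 12 markers of activated microglia in amyloid models, edgeR called 9 in A+/Pwt/wt and 11 in A+/Pki/ki against A-/Pwt/wt. Without mouse 245 edgeR called 9 in each. Neutrophil precursor genes stood out in mouse 335, with Elane at 31.0, Mpo at 56.3 and Prtn3 at 23.7 CPM, against at most 2.36 CPM for any of them in the other A+/Pki/ki mice. Among A-/Pwt/wt mice these genes, in the same order, were at 9.78, 19.1 and 7.08 CPM in mouse 236. They were at 7.85, 13.3 and 5.4 CPM in mouse 225, against at most 2.52 CPM in the other A-/Pwt/wt mice. Without that mouse the count of called genes against A-/Pwt/wt was 10. The share of counts from mitochondrial genes was 3.45-19.4% in A+/Pki/ki, 9-16.7% in A+/Pwt/wt and 5.10-24.5% in A-/Pwt/wt, and the part of these cells and of this share in the result was not tested.

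Further lists of cell cycle genes outside the 42 were counted in A+/Pki/ki against A-/Pwt/wt. Of 30 other kinetochore and spindle genes 28 were above 0, with a median log2 fold change of 0.90, and 3 were called higher. These were Aspm (spindle poles; 1.81, SE 0.28, adjusted p = 0.0087), Kif2c (1.30, adjusted p = 0.0400) and Hmmr (1.35, adjusted p = 0.0447), by edgeR. Of 20 further mitotic control genes Ncapg, a condensin subunit, and Pbk were called, and of 30 further replication genes Clspn (claspin) and Dtl, which acts with Pcna, were called. Among all 17446 genes tested in this comparison 1.35% were called higher. Without mouse 405 none of the kinetochore and spindle, mitotic control or replication genes of these lists was called. In that fit 57 of all 17213 genes tested were called higher. Without mouse 245 the counts were 6, 0 and 3, and 185 of all 17244 genes tested were called higher. None of 26 further G1 and E2F genes (median 0.16) and none of 14 p53 target genes (median 0) was called by edgeR, and without mouse 245 the G1 and E2F list had 1 called gene. Among 14 growth factor and receptor genes, 2 were called higher. Igf1 had a log2 fold change of 3.47 (adjusted p = 4.52e-05) and Csf1, a ligand of the microglial survival receptor, of 3.01 (adjusted p = 0.000425), both by edgeR. Igf1 and Csf1 were also the only ones called in these lists in A+/Pwt/wt against A-/Pwt/wt, with log2 fold changes of 3.27 for Igf1 and 2.33 for Csf1.

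In males without the transgene the comparison of KI with WT asks for an effect of P522R in the absence of plaques. None of the 42 genes was called by edgeR, and 16.4% of all 16373 genes tested were. At an unadjusted p under 0.05 by edgeR 1 gene was higher and 3 were lower, against 33.3% of all genes tested. Only 2 of 19 mitotic genes were above 0, with a median log2 fold change of -0.23, and the medians were 0.05 for replication and 0.01 for G1. The difference in mean log2 CPM of the mitotic genes, -0.27, turned to 0.12 when taken relative to the microglia markers, all 12 of which were below 0 in KI (1 called lower by edgeR). The groups separated in 5 of 42 genes, 4 lower and 1 higher, against 30.7% of all genes tested.

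Ccnd1 came nearest to a call, at 102, 106, 112 and 125 CPM in KI against 132, 135 and 148 CPM in WT, with a log2 fold change of -0.31 (SE 0.10, adjusted p = 0.0631, edgeR). DESeq2 called Ccnd1 (adjusted p = 0.0351), the only 1 of the 42 genes that it called. The share of all genes called by DESeq2 is not given, and by edgeR it was 16.4% in this comparison. Cdk2 at 21.4-24.6 against 26.4-30.1 CPM and Tyms at 5.13-5.59 against 5.62-6.87 CPM were also wholly lower in KI, and E2f1, at 3.94-6.31 against 3.32-3.82 CPM, was wholly higher. Mki67 was at 5.10, 5.26, 7.24 and 7.88 CPM in KI and at 7.12, 7.31 and 12 CPM in WT, and Uhrf1 was at a mean of 2.81 CPM in both groups. All 12 neuron markers were called higher in KI by edgeR, with a median log2 fold change of 2.12 and scores of 4.5-5.77 against 3.00-3.53 in WT, and so were all 10 astrocyte markers. The microglia score was 9.90-10.66 in KI and 10.55-10.61 in WT, and the part of these cells in the Ccnd1 result was not tested.

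The effect of P522R in A+ females minus its effect in A- males was above 0 for all 19 mitotic genes (median difference 0.73 on the log2 scale), for 12 of 17 replication genes (0.21) and for 5 of 6 G1 genes (0.18). No gene of the list was called in this interaction by edgeR, 0% of all 17619 genes tested were, and 12 of the 42 had an unadjusted p under 0.05, 11 of them above 0, against 26.5% of all genes tested in either direction. The smallest adjusted p by edgeR was 0.143, with differences of 1.17 (SE 0.35) for Bub1b, 1.09 (SE 0.34) for Mki67 and 1.43 (SE 0.48) for Ccnb1. The replication gene Uhrf1 shared it, with a difference of 0.69 (SE 0.24). Of the 12 genes at an unadjusted p under 0.05 only Ccnd2 was below 0, at -0.76 (SE 0.35). Over the whole list 6 of 42 genes were below 0. Without mouse 335, 8 of the 42 genes were called, and so were 35.4% of all 17495 genes tested in that fit. In the same contrast all 12 neuron markers were below 0 (median -2.98), and all 12 microglia markers above 0 (median 0.54), with none called by edgeR (12 neuron and 3 microglia markers at an unadjusted p under 0.05), and their part in it was not tested. Sex, transgene and library tag all differ between the sides of this contrast and cannot be told apart.

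In cortex the fold changes of A+/Pki/ki against A+/Pwt/wt were spread around 0. Of 41 genes tested 24 were above 0, the median log2 fold change was 0.04, and none was called by edgeR, DESeq2 or limma, as for 0% of all 18640 genes by edgeR. By edgeR 2 genes had an unadjusted p under 0.05, against 2.76% of all genes tested in either direction, and 1 separated the groups, against 0.939% of all genes tested lying wholly higher. Ccnb2 was at 0.910, 0.959, 1.06 and 1.30 CPM in A+/Pki/ki and at 0.329, 0.427, 0.574 and 0.642 CPM in A+/Pwt/wt, from 12-54 reads a library. Its log2 fold change was 1.13 (SE 0.28, adjusted p = 1, edgeR), and the single A-/Pwt/wt library was at 0.644 CPM. Bub1b was the other, at 1.17, 1.36, 1.38 and 1.97 against 0.626, 0.650, 0.933 and 1.52 CPM, with a log2 fold change of 0.68 (SE 0.30).

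For the other mitotic genes the cortex groups overlapped. Mki67 was at 1.64-1.89 in A+/Pki/ki and 1.37-1.79 CPM in A+/Pwt/wt, Cdk1 at 0.192-0.801 and 0.341-0.722 CPM, and Top2a at 0.692-1.73 and 1.07-1.85 CPM. Ccnb1 was the lowest of the list at -0.33 on the log2 scale. The summed mitotic level was 22.7-25.1 CPM in A+/Pki/ki and 22.2-23.7 CPM in A+/Pwt/wt, against 16.5 CPM in the single A-/Pwt/wt library, where the microglia score was 4.73 against 5.55-5.89 in the A+ libraries. Most mitotic genes had few reads a library in cortex, which limits what could be detected there.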

How the data were processed

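The deposited count tables hold whole-number reads per gene for cortex and for female and male CD11b+ cells. The authors trimmed paired-end reads of poly(A)-enriched RNA with Trimmomatic 0.39, aligned them with STAR 2.7.9a to GRCm38 and counted them per gene with featureCounts 2.12.0 without strand. A second set of tables, deposited by the authors, holds DESeq2 variance-stabilized log2 values. It served only for the limma alternative and for an alternative form of the scores. The tables were normalized separately, so tests of 2 groups were made within a table. The interaction was the exception, with male and female CD11b+ counts scaled and fitted together.

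Counts were scaled by TMM and tested with edgeR 4.0.16 (quasi-likelihood, Benjamini-Hochberg, FDR 0.05) in R 4.3.3, fitting only the groups compared, keeping a gene where 3 or more fitted libraries reached 10 counts, in 6 comparisons including the interaction. CPM used TMM over all libraries of a table. A score is the mean log2 CPM of a list with a prior count of 2. No p was computed for scores or lists. DESeq2 1.42.0, limma 3.58.1, other scalings and filters, and leaving out each library were alternatives. The fits were tested on simulated data. The members and lists were chosen with earlier results of these data known. By rule, the 13 members given library by library were Mki67, Top2a and Cdk1, every member called in any comparison and the 3 with the highest level per exon length in each tissue. The other members were given by range or fold change, and of each pathway list at most 4 called genes were named. Outside this rule, Ccnb1, E2f8, Ccnd2 and Cdc45 were also given library by library in some groups. Promoters were shown for members with the smallest adjusted p whose promoter held a searched element upstream of the start and outside exons. Exon lengths came from Gencode M21 and promoters from RefSeq GRCm38.p6. Depth was 16229831 to 43129427 counts a library, and values of genes with few reads carry more counting error.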

Additional observations from a re-analysis of the deposited data

Results flagged for a closer look

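A single library stood far from the rest of its group in 8 of the 102 groups of values tested. Chance alone marks about 1 in 20 such groups if they are independent. These groups share libraries and are not, so the count cannot be set against that rate. In CD11b+ cells, Mki67 was at 29.5 CPM in A+/Pki/ki mouse 405 against 16.5-18.6 CPM in the other 3, the library whose omission left Mki67 as the one gene called. Male KI mouse 139 was low for Top2a (4.02 CPM against 7.11-7.35 CPM) and for Bub1b (1.48 CPM against 2.58-2.71 CPM). Among female A-/Pwt/wt libraries, Prc1 was high in mouse 242, at 3.43 CPM against 2.00-2.51 CPM, and Cdk4 was low in mouse 223, at 36.1 CPM against 54.7-60.7 CPM. In cortex, Tpx2 was low in A+/Pwt/wt mouse 257, at 2.21 CPM against 2.87-2.88 CPM, and Kif11 was high in A+/Pki/ki mouse 216, at 1.64 CPM against 1.03-1.09 CPM. The mean log2 CPM of the 42 genes was 1.48 in cortex A+/Pki/ki mouse 184 against 1.55-1.56 in the other 3.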

How the results depend on the processing

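No paired analysis was possible because the groups compared share fewer than 2 replicate numbers. Over 22 summary results, 311 of 330 values under another setting moved by less than the spread between libraries, or by less than 1.5 times for a count. With DESeq2, 1 gene was called in KI against WT and 6 in A+/Pwt/wt against A-/Pwt/wt. In the latter comparison limma on deposited values and the fit with all groups of the table each called 1. The share of all genes called under these settings is not given. The median log2 fold change of A+/Pki/ki against A-/Pwt/wt was 0.49 with limma, against 0.76. The difference in the mean log2 CPM of the 42 genes there, 0.83, became 1.12 with the median over genes, 0.55 with deposited values and 0.62 relative to microglia markers, and that of mitotic genes, 1.18, became 0.80 with deposited values. Relative to microglia markers, the difference of A+/Pki/ki from A+/Pwt/wt fell to 0.15, and the male difference turned from -0.11 to 0.28 for all 42 genes and from -0.27 to 0.12 for mitotic genes. The causes of these shifts were not tested.

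Leaving out 1 library at a time gave 0-3 called genes in KI against WT, with a median log2 fold change of -0.18 to 0.02, 0-1 in A+/Pwt/wt against A-/Pwt/wt, 1-11 in A+/Pki/ki against A-/Pwt/wt and 0-8 in the interaction. The fit with 8 calls had 35.4% of all 17495 genes tested called. In the fit with 11 calls, 185 of all 17244 were called higher. For KI against WT the share of all genes called is not given for these fits, and it was 16.4% with all libraries. For A+/Pwt/wt against A-/Pwt/wt it was 1.29% with all libraries. The single genes whose direction turned were near 0 and never called. In KI against WT, Cdk1 ran from -0.45 to 0.04, Tpx2 from -0.20 to 0.14, Uhrf1 from -0.04 to 0.07, Pcna from -0.17 to 0.07 and Cdk4 from -0.06 to 0.06 on the log2 scale. Uhrf1 was also at 0 with DESeq2 size factors, with DESeq2 and with limma, and at 0.04 without the low-count filter. In A+/Pwt/wt against A-/Pwt/wt, Ccnd1 ran from -0.16 to 0.05 and was at 0.01 with limma. In cortex, Top2a ran from -0.31 to 0.06, Cdk1 from -0.24 to 0.33, Prc1 from -0.21 to 0.04, Uhrf1 from -0.24 to 0.13, Ccnd1 from -0.06 to 0.15 and Cdk4 from -0.05 to 0.04. Depth limits Cdc6, Bub1, Ccnb1 and the other genes with few reads most.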
